A study of Mus musculus with 6 samples.

Results

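Integrins and laminins were examined in single-cell RNA-Seq data of mouse striatum. The members were the genes whose symbols follow the naming pattern of integrin α (*Itga*), integrin β (*Itgb*), laminin α (*Lama*), laminin β (*Lamb*) or laminin γ (*Lamc*) chains, without the integrin β binding proteins. This gave 39 of 32285 genes, comprising 18 integrin α genes, 10 integrin β genes, 5 laminin α, 3 laminin β and 3 laminin γ genes. *Itgbl1*, counted with the β genes by its name, is an integrin-like protein and not a receptor subunit. Striatal cells of wild-type male C57BL/6 mice were enriched for the astrocyte surface antigen ACSA2 on postnatal day 3 (P3) or at an age of 3 months (3m), with 3 libraries for each, each from its own preparation of tissue pooled from several animals. No transgene, Cre line or treatment was used, so the groups differed by age alone in their labels. The authors' annotation was used for 14373 cells, 11188 at P3 and 3185 at 3m, of which 8874 and 1118 were astroglial. The libraries were unequal in depth, with 32193875 to 37795021 unique molecular identifiers (UMIs, counted transcript molecules) at P3 and 5471573 to 10522151 at 3m. Within the annotated cells, 28 barcode sequences occurred in 2 libraries.

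Integrins are transmembrane receptors made of an α and a β chain, which connect the extracellular matrix with the actin cytoskeleton. Laminins are trimers of an α, a β and a γ chain and form the sheet-like network of basement membranes. In the brain, basement membranes surround blood vessels, where endothelial cells, mural cells (pericytes and smooth muscle) and astrocyte endfeet all contribute to or attach to the same matrix. Integrin β1 is the common partner of most laminin-binding α chains, whereas integrins αvβ5 and αvβ8 bind vitronectin and latent TGFβ, respectively.

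To ask which cells carried these transcripts, levels were compared across the annotated cell classes as CPM (counts per 1000000 UMIs), averaged over libraries with at least 10 cells of the class. A 3′ tag gives 1 count per molecule, so CPM was not divided by transcript length. These class levels are a description, because the clusters were built from the same transcripts. Of 37 members detected at P3 in these classes, 17 had their highest level in a vascular or mural cluster (END_7, END_12, END_13 or PER_6). This count was 20 when the small unnamed clusters LOW_20 and LOW_23 were left out, a choice made after seeing the data. Some of these highest levels were low, as for *Itga8* (6.52 CPM), *Itga10* (7.11 CPM) and *Itga11* (8.20 CPM) in PER_6. The share of all genes with their highest level in these clusters was not computed, so the count is not read as a trait of the list. The mural cluster PER_6 at P3 (628 cells) had 1056 ± 242 CPM of *Itga1*, a collagen- and laminin-binding α chain, and 861 ± 146 CPM of *Itgb1* (SD, n = 3 libraries). It also held laminin transcripts, with *Lamc1* at 317 ± 35.4 CPM, *Lamb1* at 293 ± 49.0 CPM and *Lama4* at 269 ± 28.5 CPM.

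At 3m only 16 cells remained in PER_6, and mural transcripts were found in the unnamed cluster LOW_21, with 68 cells and 147250 UMIs. LOW_21 differed from PER_6, as the mural markers *Acta2* and *Tagln*, at 3980 and 2287 CPM in PER_6, were at 0 CPM in LOW_21. *Itga1* reached 1264 ± 382 CPM there and *Lamc1* 397 ± 152 CPM. The laminin β transcripts stood in the opposite order to P3, as *Lamb2* was at 234 ± 35.4 CPM and *Lamb1* at 61.5 ± 13.9 CPM, against 61.4 ± 3.33 and 293 ± 49.0 CPM in PER_6. These *Lamb1* and *Lamb2* values at 3m rest on 9 and 35 UMIs and were not tested, since cluster and age cannot be told apart.

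**Figure D1:**
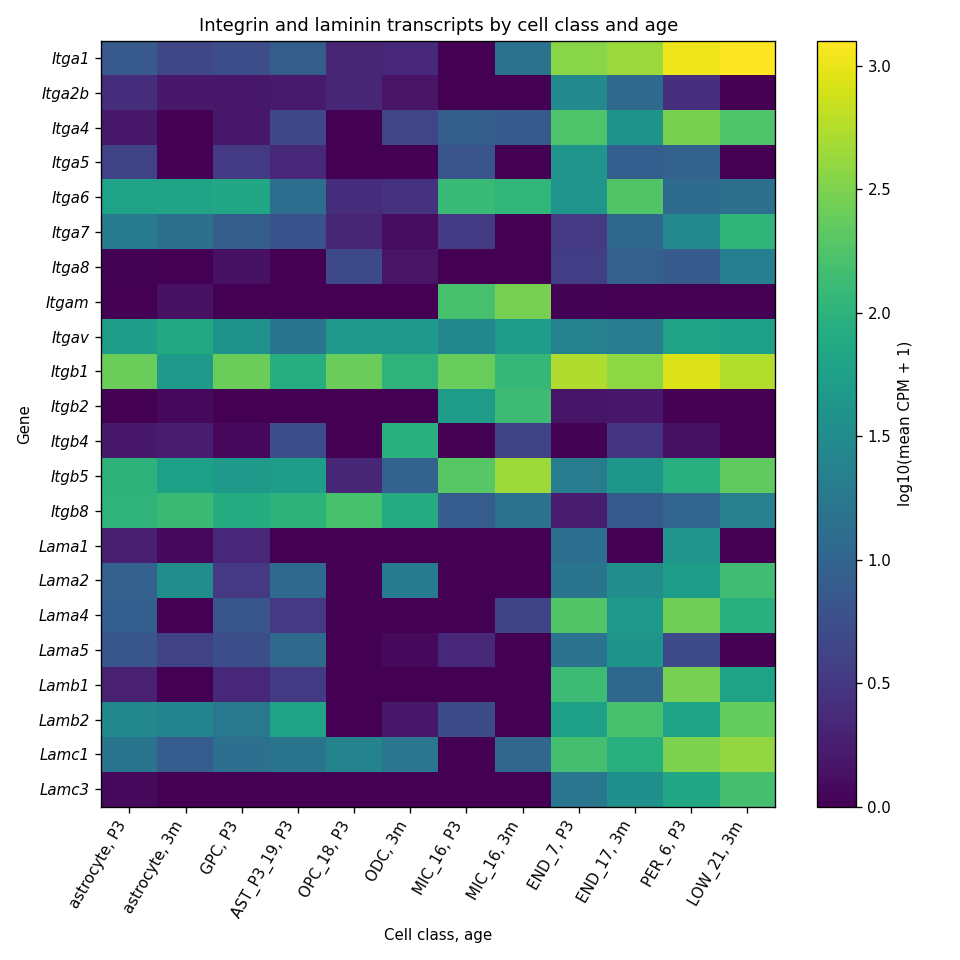
Mean level of each member that reached 20 CPM in some class shown, as log10(mean CPM + 1), in rows by gene and in columns by cell class and age. Laminin chains and *Itga1* are brightest in the 4 vascular and mural columns on the right, *Itgam* and *Itgb2* in the microglial columns, and *Itgb4* in the oligodendrocyte (ODC) column.

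Other classes had their own subunits. Oligodendrocytes at 3m (1731 cells) held 98.9% of all *Itgb4* UMIs of that age. This β chain, which pairs with α6 as a laminin receptor, was at 99.2, 93.6 and 85.2 CPM in the 3 libraries. All 134 UMIs of *Itgad*, an α chain known from leukocytes, were in oligodendrocytes at 3m, with 72, 42 and 20 UMIs in the libraries of replicates 1, 2 and 3. Its chromosomal neighbours *Itgam* and *Itgax* are related genes, and *Itgam* was found elsewhere, with 97.4% of its 3m UMIs in microglia. The unnamed cluster LOW_23 had 27 cells in P3 replicate 2, with *Itgb4* at 55.2 CPM, *Lamb1* at 52.1 CPM and *Lamb3*, a β chain known from epithelia, at 30.6 CPM. Oligodendrocyte precursors at P3 had the highest *Itgb8* level of that age, 158 ± 16.1 CPM.

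Astroglial cells expressed a small set of receptor chains. At P3 these were *Itgb1* (251 ± 69.2 CPM), *Itgb8* (98.5 ± 14.2), *Itgb5* (86.2 ± 24.2), *Itga6* (62.7 ± 14.2) and *Itgav* (48.7 ± 8.25). Of laminin chains, *Lamb2* was the most frequent transcript in these cells, at 25.3 ± 2.25 CPM, followed by *Lamc1* at 14.6 ± 2.89 CPM. Vascular laminins were low in comparison with their source classes. *Lamb1* in P3 astrocytes was at 0.323% of its PER_6 level and *Itga1* at 0.596%. *Lama4* was at 2.78% and *Lamc1* at 4.79%. Mural marker genes were at 0.100% to 7.50% of their PER_6 levels in the same cells (median 0.195%, 8 markers). *Pdgfrb* (7.50%) and *Tagln* (2.09%) were the highest, and the next, *Des*, was at 0.224%. *Lamb1* and *Itga1* thus lay between *Des* and *Tagln*, and *Lama4* and *Lamc1* between *Tagln* and *Pdgfrb*. The part of mural RNA in these values was not tested.

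To determine how the members changed with age in astroglial cells, the UMI sums of the libraries were compared with edgeR. The P3 and 3m cells lay in different sub-clusters, apart from 1 P3 cell in sub-cluster 7 and a few 3m cells in sub-clusters 2, 4 and 5, and the P3 sums held the cycling sub-clusters 6 and 8, so sub-cluster and age cannot be told apart here either. Changes with an adjusted p (padj) up to 0.05 and a log2(fold change) of 1 or more in either direction were called. Of 16 members tested, 2 were higher and 4 lower at 3m, against 15.8% and 16.3% of the 13530 genes tested. The members' median log2(fold change) was -0.42, and that of all genes -0.04. Without scaling beyond library totals, the median of all genes was -0.24, with 1753 genes higher and 2790 lower against 2140 and 2204. As the share of members called was near that of all genes, the list did not stand out by its count.

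The main receptor chain fell. *Itgb1* was at 328, 193 and 233 CPM in the P3 libraries and at 42.3, 42.3 and 50.3 CPM in the 3m libraries. The ages did not overlap, as was the case for 59.0% of all genes tested. This is a log2(fold change) of -2.28 ± 0.21 (SE, padj = 2.11e-06), and the value lay between -2.48 and -2.03 in 17 alternative analyses. The laminin-binding chains *Itga6* and *Itga7*, which pair with β1, did not pass the thresholds. *Itga6* had 63.4 ± 3.43 CPM at 3m (log2(fold change) 0.21 ± 0.18, padj = 0.362), and *Itga7* 12.9 ± 0.668 CPM (-0.07 ± 0.23, padj = 0.838).

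The αv group differed less. *Itgav* was at 48.7 ± 8.25 CPM at P3 and 76.3 ± 16.5 CPM at 3m, a log2(fold change) of 0.86 ± 0.20 (padj = 0.00282), below the required fold but past it without P3 replicate 1 (1.01). The values for *Itgb8* (0.59 ± 0.21, padj = 0.0324) likewise missed the fold threshold, and its libraries overlapped, with 95.9 CPM in 3m replicate 1 and 114.5 CPM in P3 replicate 1. With telencephalic lineage sub-clusters alone, *Itgb8* was at 0.13 (padj = 0.512). *Itgb5*, the other αv partner, had a value of -0.41 ± 0.20 (padj = 0.105).

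Laminin α chains changed in both directions. *Lama2*, the α chain of laminin-211 and of muscle and astrocyte endfoot basement membranes, was at 7.35, 4.83 and 7.49 CPM at P3 and at 41.5, 23.9 and 33.3 CPM at 3m. Every 3m library lay above every P3 library, and the log2(fold change) was 2.50 ± 0.24 (padj = 2.34e-06). *Lama3*, an α chain known from epithelia, had 2 UMIs in all P3 astroglial cells and 33 at 3m, a 3m to P3 ratio of 286 with a counting interval of 73.1 to 2459 (95%, exact). It was called (padj = 4.07e-07) at a level of 7.46 ± 1.83 CPM.

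*Lama4*, the α chain of vascular laminin-411, had 528 UMIs at P3 and none at 3m, which is at least 10.2-fold lower when 3 UMIs are set as the floor over the 3m libraries. *Itga5*, the fibronectin receptor chain, had 241 UMIs at P3 and none at 3m, at least 4.64-fold lower. *Itga2*, a collagen-binding chain, had 394 UMIs at P3 and 1 at 3m, a P3 to 3m ratio of 22.7 with a counting interval of 4.06 to 900.3. These calls rest on the depth at P3, and only 1 of the 4 lower calls was left without P3 replicate 1 or 3 and 2 without P3 replicate 2, where 10 to 13 members passed the filter. *Lamc1* (-0.83 ± 0.26, padj = 0.0191), *Lama5* (-0.73 ± 0.36, padj = 0.110), *Itga1* (-0.43 ± 0.40, padj = 0.392), *Itga2b* (-0.81 ± 0.82, padj = 0.441) and *Lamb2* (0.11 ± 0.18, padj = 0.634) were not called. With telencephalic lineage sub-clusters alone, 6 of 15 members were lower and 2 higher, against 2274 and 2126 of 12804 genes tested. *Itga1* (-1.74, padj = 0.0208) and *Lamc1* (-1.42, padj = 0.00170) then passed the thresholds. *Lamc1* was also called without scaling (-1.03). Markers of other cells moved with age in the same sums. Oligodendrocyte markers summed to 98.5 to 278 CPM at 3m and 0.717 to 1.42 CPM at P3, microglial markers to 65.9 to 99.8 and 18.3 to 24.1 CPM. Without cells holding 3 or more UMIs of microglial, endothelial or mural markers, 2 of 16 members were called higher and 4 lower. Of all genes, 2011 of 13145 were then higher and 2040 lower. The part of oligodendrocyte RNA in these results was not tested. The *Lama2* level of oligodendrocytes was at most 22.9 CPM.

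**Figure D2:**
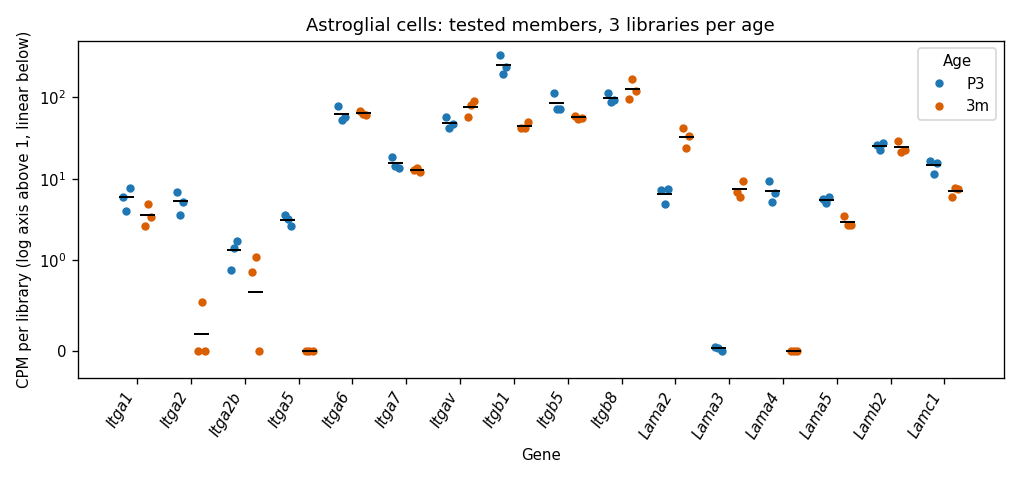
CPM of each tested member in astroglial cells, 1 point per library (3 at P3, 3 at 3m), with the mean as a black line, on an axis that is logarithmic above 1 and linear below. *Itgb1* falls and *Lama2* and *Lama3* rise between the ages, and the 3m points of *Itga5* and *Lama4* are at 0.

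Astroglial sub-clusters of P3 differed in their receptor chains, which is given as a description because the sub-clusters were made from the same cells. The telencephalic astrocyte sub-clusters 0, 1, 9 and 11 had 219 to 370 CPM of *Itgb1*, and the sub-clusters that the study placed with non-telencephalic astrocytes (3, 4, 5, 10, 12 and 15) had 83.0 to 331 CPM. These ranges overlapped, since sub-cluster 12 was at 331 CPM. Sub-cluster 4, at 216 CPM, lay just below the telencephalic range. Its mean joins 146 CPM in 12 cells of P3 replicate 2 and 287 CPM in 719 cells of P3 replicate 3. Sub-clusters 3, 5, 10 and 15 lay at 83.0 to 158 CPM. The ranges did not overlap for *Itga6* (63.6 to 109 against 13.5 to 59.2 CPM) or for *Itga7* (22.7 to 36.4 against 1.47 to 13.1 CPM). This holds for the sub-clusters named, as the main lineage sub-clusters 2, 6 and 8 were in neither group. In P3 cells of bins 11 and 12 of the authors' pseudotime, *Itga7* was at 8.25, 8.67 and 9.06 CPM, inside the non-telencephalic range. Several sub-clusters were mostly from 1 library. Sub-cluster 1 had 1156 of its cells in P3 replicate 1, and sub-clusters 4 and 12 had 719 and 273 in P3 replicate 3. Sub-cluster 12 stood apart with *Itga1* at 140 CPM, *Lamc1* at 96.8 CPM and *Lama4* at 53.8 CPM.

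Along the pseudotime that the authors computed, members followed different courses. Among P3 cells, *Itgb5* was at 48.1, 38.6 and 34.9 CPM in bins 2 to 10 of the 3 libraries and at 151, 109.5 and 106 CPM in bins 13 and 14. *Itga7* went from 6.57, 5.70 and 5.46 CPM to 25.7, 29.0 and 25.4 CPM over the same bins. Each of these chains was thus higher in the later bins of every P3 library. *Itgb1* stayed at 314, 196 and 240 CPM in the early bins and 324, 235 and 280 CPM in the late ones. Its low level, 27.5 to 47.0 CPM, was seen in bins 16 to 19, which held 3m cells alone. The bins were grouped after their values were seen and pseudotime was built from the same transcriptomes, so no test is given.

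**Figure D3:**
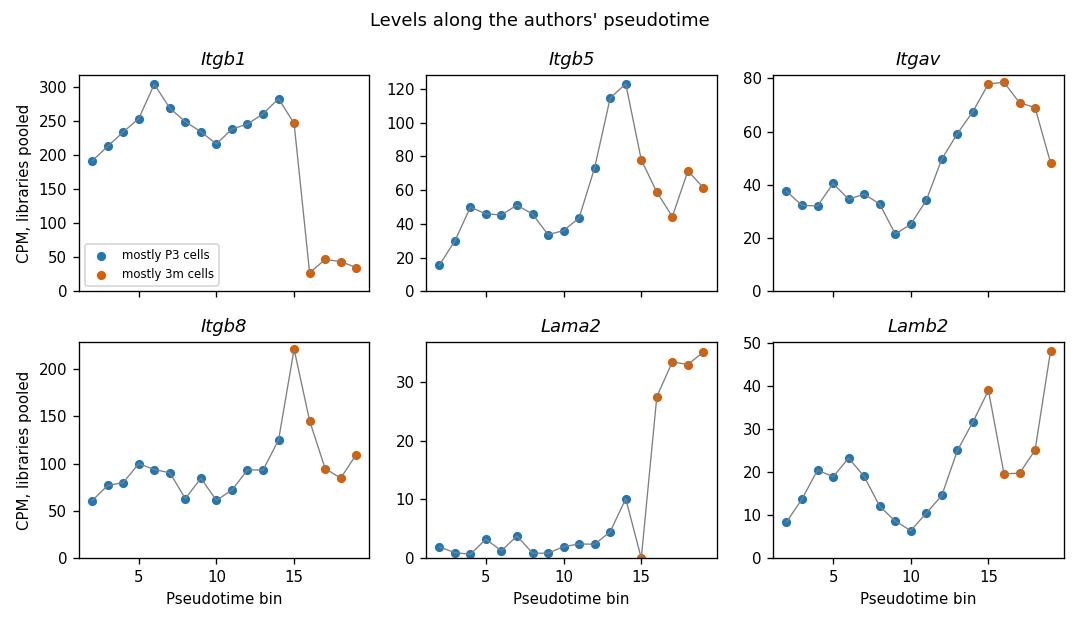
CPM of 6 members (libraries pooled) against pseudotime bin, with bins mostly of P3 cells in blue and mostly of 3m cells in orange. The age of the cells changes between bin 14 (1 of 1253 cells from 3m) and bin 15 (22 of 31). In bin 15, which pools cells of both ages and holds only 76999 UMIs, *Itgb1* is at 247 CPM (19 UMIs) and *Lama2* at 0. Each is at 27.5 CPM in bin 16, which is 7 UMIs for *Itgb1*. *Itgb5*, *Itgav* and *Lamb2* rise within the P3 bins, as does *Lama2* at a lower level. In the P3 libraries *Lama2* was at 2.12, 2.48 and 1.26 CPM in bins 2 to 10. It was at 6.19, 6.50 and 8.53 CPM in bins 13 and 14. Bin 19 holds 30 cells.

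For the endothelial cells, cluster END_7 of P3 was compared with END_17 of 3m, so cluster and age cannot be told apart. Of 18 members tested, 5 were higher and 6 lower at 3m, against 11.6% and 10.7% of 10271 genes tested. The laminin β chains moved in opposite directions. *Lamb1* was at 144, 134 and 115.5 CPM at P3 and at 14.2, 7.78 and 7.30 CPM at 3m, a log2(fold change) of -3.74 ± 0.29 (padj = 8.27e-09). *Lamb2* was at 53.1, 61.9 and 54.2 CPM at P3 and at 192, 117 and 163 CPM at 3m (1.42 ± 0.20, padj = 1.61e-05). The libraries of the ages overlapped for neither gene, as for 45.2% of all genes tested.

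The promoters of *Itgb1* and *Lama2*, called in opposite directions in astroglial cells, and of *Lamb1* and *Lamb2*, called in opposite directions in endothelial clusters, are shown to let their base composition be compared. They are the 300 bases around the RefSeq start (GRCm38.p6), with matches to the GC box GGGCGG or its reverse complement CCGCCC in capitals. *Itgb1* lies at chr8:128685404-128685703 (+), *Lama2* at chr10:27616893-27617192 (-), *Lamb1* at chr12:31265043-31265342 (+) and *Lamb2* at chr9:108479612-108479911 (+).
Itgb1: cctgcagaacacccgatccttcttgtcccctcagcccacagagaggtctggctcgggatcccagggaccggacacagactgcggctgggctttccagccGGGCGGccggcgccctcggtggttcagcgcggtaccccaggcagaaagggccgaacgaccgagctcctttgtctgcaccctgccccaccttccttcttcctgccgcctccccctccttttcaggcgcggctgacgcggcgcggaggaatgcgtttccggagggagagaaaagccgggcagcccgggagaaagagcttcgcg
Lama2: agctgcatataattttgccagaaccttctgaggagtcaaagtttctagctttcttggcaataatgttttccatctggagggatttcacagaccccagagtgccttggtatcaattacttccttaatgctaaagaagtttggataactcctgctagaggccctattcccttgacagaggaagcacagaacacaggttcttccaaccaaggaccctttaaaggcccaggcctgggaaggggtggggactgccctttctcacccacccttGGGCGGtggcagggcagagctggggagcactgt
Lamb1: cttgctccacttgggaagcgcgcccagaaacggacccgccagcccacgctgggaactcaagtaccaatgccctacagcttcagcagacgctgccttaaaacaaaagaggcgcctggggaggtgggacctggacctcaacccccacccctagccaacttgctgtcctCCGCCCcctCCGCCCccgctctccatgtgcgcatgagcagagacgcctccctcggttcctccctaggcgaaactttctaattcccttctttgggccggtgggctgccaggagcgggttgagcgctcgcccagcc
Lamb2: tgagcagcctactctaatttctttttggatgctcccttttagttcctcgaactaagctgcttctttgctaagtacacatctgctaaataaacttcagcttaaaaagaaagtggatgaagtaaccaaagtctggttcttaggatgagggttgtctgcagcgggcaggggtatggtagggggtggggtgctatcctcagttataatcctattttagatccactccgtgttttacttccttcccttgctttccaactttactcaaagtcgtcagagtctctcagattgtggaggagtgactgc
The *Itgb1* window held 67.3% G and C and 27 CG pairs, *Lamb1* 63.7% and 18, *Lama2* 50.3% and 1, and *Lamb2* 44.0% and 4. A GC box was present in 12 of the 25 members with a promoter entry and in 35.7% of all promoters. TATAAA, searched on both strands, was in none of the 25 and in 13.6% of all promoters.

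Laminin α chains of the endothelial clusters also changed in both directions. *Lama4* fell from 183 ± 19.5 to 45.3 ± 3.02 CPM (-2.10 ± 0.21, padj = 1.98e-07). *Lama5*, the α chain of laminin-511, rose from 14.2 ± 3.60 to 39.2 ± 5.21 CPM (1.36 ± 0.28, padj = 0.00101). *Lama1* had 223 UMIs at P3 and none at 3m, at least 4.91-fold lower. *Lama3* rose on 10 and 11 UMIs (3.88 ± 0.63, padj = 9.56e-05), and *Lamc3* was just past the threshold (1.01 ± 0.31, padj = 0.0172), a call that ended under 8 of 13 alternatives, with a value of 0.84 without 3m replicate 2. *Lamc1*, the γ chain shared by these laminins, missed the fold threshold (-0.79 ± 0.21, padj = 0.00606).

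Among endothelial integrins, *Itga6*, a laminin receptor chain, was at 48.7, 36.0 and 38.6 CPM at P3 and at 258, 121 and 168 CPM at 3m (2.10 ± 0.22, padj = 4.87e-07). *Itga4*, which binds VCAM1 and fibronectin, fell by 2.20 ± 0.22 on the log2 scale (padj = 2.61e-07), and *Itga5* fell by 2.56 ± 0.35 (padj = 1.14e-05). *Itga2b*, known from platelets, fell by 1.51 ± 0.36 (padj = 0.00338). *Itgb1* was at 532 ± 74.6 and 378.5 ± 17.4 CPM (-0.58 ± 0.18, padj = 0.0179), without a call. *Itgb5* (0.96 ± 0.29, padj = 0.0160), *Lama2* (0.95 ± 0.37, padj = 0.0523), *Itga1* (0.22 ± 0.21, padj = 0.461), *Itgav* (-0.28 ± 0.35, padj = 0.579) and *Itga9* (-0.97 ± 0.72, padj = 0.323) were not called either. *Itgb5* and *Lama2* were called higher without scaling (1.06 for each), without P3 replicate 2 (1.10 and 1.22) and without 3m replicate 3 (1.13 and 1.19).

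The endothelial clusters carried RNA of other cells. Mural markers summed to 6409 to 7373 CPM at 3m and 2090 to 3512 CPM at P3, with 8 of 8 detected in each library, and erythroid markers to 19189 to 42669 and 9591 to 26883 CPM. *Itga1* was at 34.2% of its LOW_21 level at 3m and at 33.4% of its PER_6 level at P3. Of members called higher, *Lamc3* was at 22.4% and 22.0% and *Lamb2* at 67.1% and 92.0% of their levels there. The mural part of the *Lamc3* call was not tested. Mural markers were at 11.4% to 47.0% and 0.773% to 35.8%. The range at 3m covers 6 markers, without *Acta2* and *Tagln*, which were at 0 CPM in LOW_21 and at 209 and 127 CPM in END_17. When cells with at least 1000 CPM of mural and fibroblast markers were left out, 9 members could be tested. *Itga6* (2.14), *Lama5* (1.82) and *Lamb2* (1.63) were then still called higher and *Itga4* (-5.59), *Lama4* (-2.02) and *Lamb1* (-7.91) lower. These sums held 20, 20 and 54 cells in the P3 libraries and 28, 22 and 25 in the 3m libraries, with 96604 to 197475 UMIs at 3m. The sizes for *Itga4* and *Lamb1*, at -2.20 and -3.74 with all cells, therefore rest on few cells and are not read as stronger changes.

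**Figure D4:**
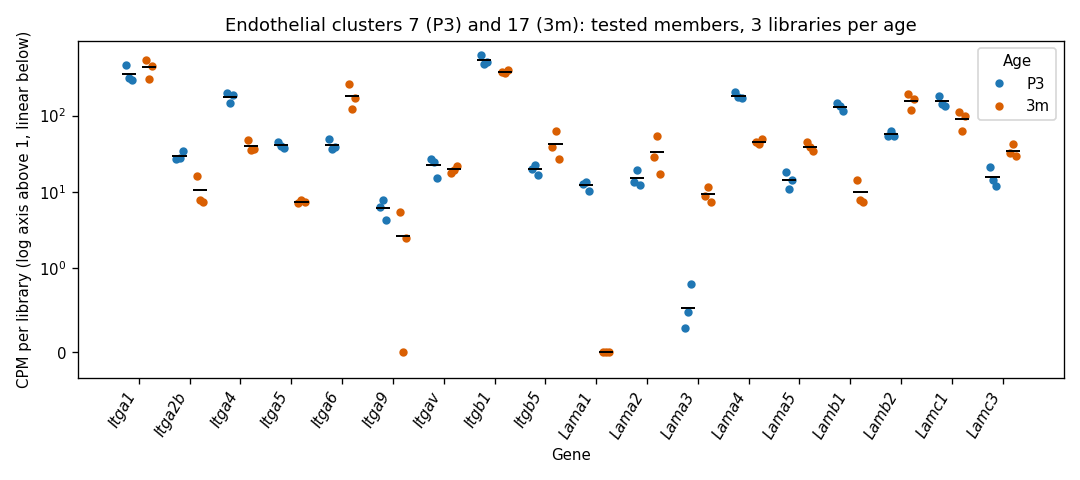
CPM of each tested member in endothelial clusters 7 (P3) and 17 (3m), 1 point per library, with the mean as a black line, on an axis logarithmic above 1 and linear below. *Lamb1*, *Lama4*, *Itga4* and *Itga5* are lower and *Lamb2*, *Lama5* and *Itga6* higher at 3m, with no overlap between ages.

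Whether the age effect differed between astroglial and endothelial cells was tested with an interaction term. It was called for 10 of 22 members tested, against 16.0% of 12767 genes. *Itgb1* fell more in astroglial cells (difference -1.60 ± 0.21, padj = 4.16e-06). *Itga6* (-1.77 ± 0.22, padj = 2.37e-06) and *Lamb2* (-1.19 ± 0.23, padj = 0.000526) had a higher age effect in endothelial cells, and *Lama2* a higher one in astroglial cells (1.64 ± 0.44, padj = 0.00861), a call lost without 3m replicate 1 (1.36) or 3 (1.32). Without scaling the median difference of all genes was -0.41, against -0.05 with it. For *Lamc1* the difference was 0.09 ± 0.34 (padj = 0.899).

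**Figure D5:**
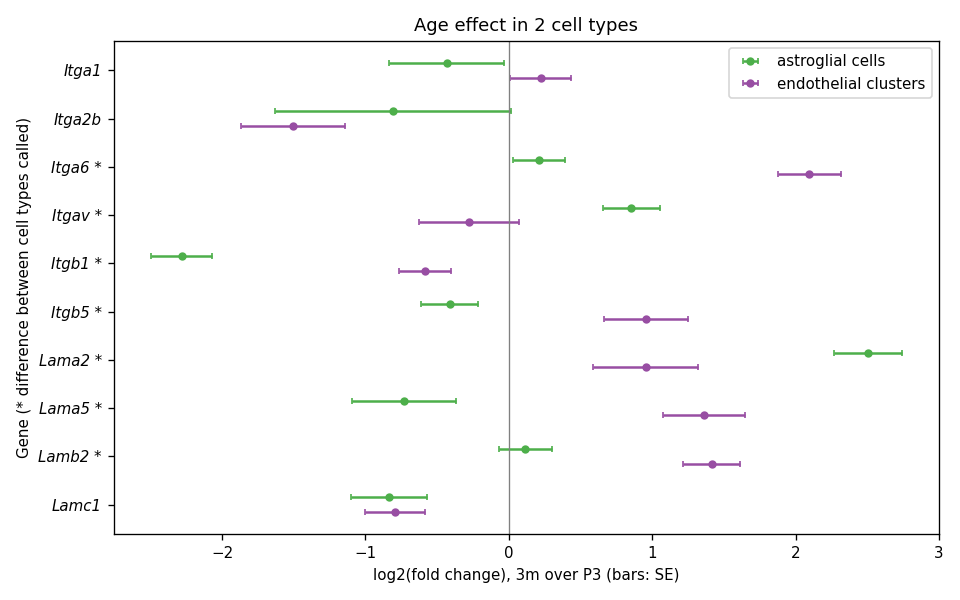
log2(fold change) of 3m over P3 with its SE for members tested in both astroglial (green) and endothelial (purple) cells, without *Itga5*, *Lama3* and *Lama4*, which had few or no UMIs in an astroglial group. Asterisks mark a called difference between the cell types, the widest of those shown being for *Lama5* and *Itga6*.

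In microglia (124 cells at P3, 60 at 3m) 5 members could be tested, and 2 were higher and 0 lower at 3m, against 6.68% and 3.43% of 2679 genes. *Itgb1*, the member with the lowest value, was at -0.92 ± 0.32 (unadjusted p of the edgeR test = 0.0116, padj = 0.0804), and was called lower without scaling (-1.05, padj = 0.0449) and without the filter (-1.20, padj = 0.0220). DESeq2 called 0 lower. Without scaling, all genes split into 145 higher and 134 lower, against 179 and 92. The ages did not overlap for 33.5% of genes. *Itgb5* was at 242, 182 and 166 CPM at P3 and at 444, 407 and 487 CPM at 3m (1.29 ± 0.25, padj = 0.00305). *Itgb2*, the leukocyte β chain, rose from 50.5 ± 13.2 to 133 ± 14.6 CPM (1.49 ± 0.34, padj = 0.0104). This call was lost when any 3m library was left out, with padj of 0.0532 to 0.114. Its partner *Itgam* (CD11b) was just under the fold threshold (0.999 ± 0.29, padj = 0.0361), and *Itga6* was at -0.16 ± 0.39 (padj = 0.838).

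Genes that work with integrins and laminins were described by lists. Of 28 tested genes of a list of integrin partners, 5 were higher and 6 lower in astroglial cells (median log2(fold change) 0.24), near the 15.8% and 16.3% of all genes. Most of this list encodes cytoplasmic proteins, but *Cd9*, *Cd81*, *Cd151* and *Cd47* encode membrane proteins. Of the latter, *Cd151* and *Cd47* were called higher and *Cd9* lower. *Vcl*, encoding vinculin, rose from 25.4 to 127 CPM (2.50 ± 0.18, padj = 2.11e-07), while *Cd9* fell by 1.76 ± 0.20 on the log2 scale (padj = 9.96e-06). Of 16 basement membrane partners of laminins, 0 were higher and 7 lower in these cells with edgeR and DESeq2 alike (2 were higher at an unadjusted p under 0.05), against 15.8% and 16.3% of all genes, and the median log2(fold change) of the list was -0.98. *Fbln2*, encoding fibulin 2, fell by 6.50 ± 0.41 (padj = 6.04e-08). In endothelial clusters, 4 of 29 genes of the integrin partner list were higher and 2 lower, against 11.6% and 10.7% of all genes. *Lims2* was up by 4.41 ± 0.21 (padj = 1.43e-11) and *Src* down to 12.9 CPM from 37.4 CPM (padj = 0.000539). There, 9 of 15 basement membrane partners were lower and 3 higher, with a median of -1.55 against -0.03 for all genes. *Ntn4* rose by 7.69 ± 0.55 (padj = 3.15e-09), and *Fbln1* fell by 2.74 ± 0.41 (padj = 3.42e-05). Of other laminin receptors, such as the dystroglycan complex, 5 of 18 were higher and 2 lower in astroglial cells (15.8% and 16.3% of all genes) and 5 of 15 were higher and 2 lower in endothelial clusters (11.6% and 10.7%). *Dtna* rose from 131 to 352 CPM in astroglial cells (padj = 6.16e-05). *Rpsa*, which also encodes a ribosomal protein, fell there by 1.91 ± 0.30 (padj = 0.000191). In endothelial clusters *Utrn*, encoding utrophin, rose by 1.88 ± 0.18 (padj = 1.98e-07) and *Sgce*, encoding ε-sarcoglycan, fell from 46.6 to 15.5 CPM (padj = 0.00111). Among other integrin ligands, 3 of 21 were higher and 7 lower in astroglial cells, against 15.8% and 16.3% of all genes, and *Tnc*, encoding tenascin C, fell by 4.03 ± 0.27 (padj = 1.06e-07). In endothelial clusters 6 of 18 ligands rose and 6 fell, against 11.6% and 10.7% of all genes, with *Vcam1* up by 4.54 ± 0.24 (padj = 5.37e-11) and *Nrros* down by 2.30 ± 0.40 on the log2 scale (padj = 0.000167).

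In microglia edgeR called 0 of the 20 tested genes of these lists, with 4 at an unadjusted p under 0.05 and 0 called by DESeq2. The remaining members were low, and 16 of the 39 were tested neither in astroglial nor in endothelial nor in microglial cells. Of these, *Itga8* was tested for the difference between astroglial and endothelial cells alone (-4.61 ± 3.81, padj = 0.447). *Itga3*, *Itga8*, *Itga10*, *Itga11*, *Itgae* and *Itgb3* had 46 to 118 UMIs over both ages, *Lamb3* 27 and *Itgbl1* 18. *Itgb2l* and *Itgb6* had 1 UMI each over both ages, and *Itgal*, *Itgax* and *Itgb7* at most 12.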

How the data were processed

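Single-cell RNA-Seq (10x, 3′) was made from ACSA2-enriched striatal cells, 3 libraries per age. The deposited table holds raw UMI counts per gene and cell, which the authors obtained with Cell Ranger on mm10 and filtered, clustered and annotated in Seurat (3.1.1 per the labels); cluster names and sub-clusters are the authors' own, and the deposited pseudotime bin is a score that the authors computed with Slingshot. All 14373 annotated cells had over 500 genes and under 10% mitochondrial UMIs. The median mitochondrial share of a library's annotated cells was 1.24% to 2.48% at P3 and 4.52% to 7.38% at 3m. No doublets were removed here. UMI sums of each library and cell class were compared in edgeR 4.0.16 (TMM, filterByExpr, quasi-likelihood, Benjamini-Hochberg) in R 4.3.3, and with DESeq2 1.42.0 as an alternative; the procedure was tested on simulated counts. P-values measure the spread between 3 preparations per age. Intervals and the floor of 3 UMIs cover counting error only. Sums held 1157485 to 30617140 UMIs for astroglial cells, 256977 to 7386516 for endothelial clusters and 53392 to 329377 for microglia. The values of 1 member are not reported here, and every other member is accounted for; values are given for members with a call or at least 20 CPM in some class, and for the largest called change each way of each pathway list with at least 20 CPM at the higher age. The members and lists were chosen with earlier results of these data known. Alternatives changed the scaling, filter, depth, cells and libraries used. Promoters are from RefSeq GRCm38.p6, with entries for 25 members.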

Additional observations from a re-analysis of the deposited data

Results flagged for a closer look

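The age effect differed between astroglial and endothelial cells for 10 members by the interaction term, given here as the astroglial minus the endothelial log2(fold change). It was -1.77 for *Itga6*, -1.60 for *Itgb1*, -2.01 for *Lama5*, -1.19 for *Lamb2*, -1.29 for *Itgb5* and -2.25 for *Itga7*. It was 1.11 for *Itgav*, 1.64 for *Lama2* and 3.84 for *Lama3*. For *Lama4* it was -6.62, a fitted value that depends on the prior count because no UMI was found in 3m astroglial cells. Calls were lost without 3m replicate 1 for *Itga7* (-1.31), *Lama2* (1.36) and *Lama4* (-6.85), without 3m replicate 2 for *Itgav* (1.03), *Itgb5* (-1.04) and *Lama4* (-6.91), without 3m replicate 3 for *Itgav* (1.04), *Lama2* (1.32), *Lama3* (3.56) and *Lama4* (-6.75), without P3 replicate 2 for *Itgav* (1.00) and *Lama3* (3.97) and without P3 replicate 3 for *Lama3* (2.90). The mural marker content of the endothelial sums, which differed between ages, moved with these results, and its part was not tested.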

How the results depend on the processing

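No member's call changed direction under any alternative. Thinning to the smallest library left 1 member higher and 1 lower in astroglial cells, 2 and 3 in endothelial clusters and 1 higher in microglia, with fewer members tested. The stricter cell filter (over 1000 genes, under 5% mitochondrial) gave 1 higher in astroglial cells. It kept 12 of 213, 137 of 546 and 88 of 359 astroglial cells in the 3m libraries. In the P3 libraries it kept 1835 of 1985, 2951 of 3103 and 2918 of 3786. Without cells rich in mural and fibroblast markers, an alternative chosen after seeing the data, 3 were higher and 3 lower in endothelial clusters. With no filter on low counts, microglia had 1 higher and 1 lower, and with no scaling beyond library totals 1 lower. Leaving out each library gave 2 to 3 higher and 1 to 4 lower in astroglial cells (1 lower without P3 replicate 1 or 3, 2 without P3 replicate 2, as fewer members passed the filter), 3 to 8 and 5 to 6 in endothelial clusters (3 higher without P3 replicate 3, 8 without 3m replicate 3), 1 to 3 and 0 in microglia, 6 to 10 for the difference between cell types (6 without 3m replicate 3) and 17 to 21 members highest in a vascular or mural cluster. Whether replicate numbers pair the samples was not settled. Deviations of the libraries from their age mean correlated at 0.21, 0.10 and 0.04 for same-numbered pairs in astroglial cells, and at -0.17 to 0.14 for other pairs. With a replicate block, 2 members were higher and 4 lower in astroglial cells, 4 and 6 in endothelial clusters and 2 and 0 in microglia. Over all genes, counts moved by over 1.5 times from 2204 to 1294 lower (thinned) and from 2140 to 1322 higher (stricter filter) in astroglial cells; from 1191 and 1095 to 537 and 388 (thinned) and to 762 and 598 (without mural-rich cells) in endothelial clusters; and from 179 and 92 to 83 and 30 (thinned) in microglia, where 313 were lower with no filter. Leaving out a library gave 682 to 1188 lower in endothelial clusters (682 without P3 replicate 3, 707 without P3 replicate 2) and 80 to 163 higher and 45 to 103 lower in microglia (80 and 45 without 3m replicate 1, 104 and 55 without 3m replicate 2). The low UMI totals at 3m limit what can be seen of rare members.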
